A study of Mus musculus with 8 samples.

Results

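The cell cycle and DNA replication genes described here are 43 genes taken by symbol from a list of known roles, drawn up with earlier results of these data known, out of 55487 gene identifiers counted in whole tumors. They divide by role into 19 replication genes, which act at the entry into S phase or during it, and 24 mitotic genes, which act from late G2 to cell division. RNA was sequenced from 8 tumors of Lewis lung carcinoma (LLC), a line derived from a mouse lung tumor, implanted subcutaneously in C57BL/6J mice and removed at day 12. In 4 tumors the cancer cells were wild-type and in 4 they were labelled Ago2 knock-out (ΔAgo2), that is, meant to lack Argonaute 2, the protein that uses small RNAs to silence transcripts. According to the study's methods the hosts were adult female mice with an intact Ago2 gene, the cells were injected in the flank, and the ΔAgo2 cells were made with a lentiviral CRISPR vector, puromycin selection and sorting of single cells into clones. The study names a single clone as chosen for engraftment, so that a trait of that clone and the loss of Ago2 cannot be told apart. Whether wild-type cells were selected or cloned in the same way was not given in the sources used here. The labels name no treatment, and all 8 libraries carry batch label 1.

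A dividing cell first licenses its replication origins by loading the MCM helicase, then fires them in S phase with cyclin E or cyclin A and CDK2, and copies its DNA with the help of the sliding clamp PCNA and a raised supply of deoxynucleotides. These replication genes are switched on together at the G1/S border by E2F factors. The mitotic genes are switched on later, in G2, when the MuvB complex with B-MYB and FOXM1 binds the CHR element of their promoters, often beside CCAAT boxes bound by NF-Y. Cyclin B with CDK1 then starts mitosis, the spindle and kinetochores move the chromosomes, and the anaphase-promoting complex ends mitosis by destroying the cyclins. In tumors the transcripts of both groups are used as measures of proliferation, and in whole tumor RNA they come from every dividing cell, cancer cell or host cell.

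Promoter sequence of 6 members is shown because the division between replication and mitotic genes, by which the values below are set out, is thought to rest in part on these elements. Each line is 120 bases upstream of the start site, on the strand of the gene, from RefSeq on GRCm38.p6. Capitals mark the CHR element (TTTGAA or TTTAAA), the CCAAT box (CCAAT) and the E2F site (TTTCCCGC, TTTCGCGC, TTTGCCGC or TTTGGCGC), each searched on both strands, so that TTCAAA and ATTGG are the reverse forms of the first pair. Kif11 lies at chr19:37376262-37376381 (+), Ccnb2 at chr9:70421555-70421674 (-), Top2a at chr11:99024190-99024309 (-), Mki67 at chr7:135716380-135716499 (-), Mcm5 at chr8:75109389-75109508 (+) and Mcm6 at chr1:128359706-128359825 (-).
Kif11: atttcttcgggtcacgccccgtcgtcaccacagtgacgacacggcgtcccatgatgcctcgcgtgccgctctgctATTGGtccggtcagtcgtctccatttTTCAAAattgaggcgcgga
Ccnb2: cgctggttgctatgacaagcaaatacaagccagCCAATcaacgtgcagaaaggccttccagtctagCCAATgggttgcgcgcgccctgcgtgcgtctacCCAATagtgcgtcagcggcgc
Top2a: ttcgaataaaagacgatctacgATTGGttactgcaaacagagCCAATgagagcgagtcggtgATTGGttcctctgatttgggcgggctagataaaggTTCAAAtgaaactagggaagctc
Mki67: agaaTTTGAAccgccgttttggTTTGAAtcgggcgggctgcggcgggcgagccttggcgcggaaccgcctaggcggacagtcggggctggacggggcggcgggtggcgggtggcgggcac
Mcm5: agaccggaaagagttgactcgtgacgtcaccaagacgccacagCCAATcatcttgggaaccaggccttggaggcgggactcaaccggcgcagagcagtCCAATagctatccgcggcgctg
Mcm6: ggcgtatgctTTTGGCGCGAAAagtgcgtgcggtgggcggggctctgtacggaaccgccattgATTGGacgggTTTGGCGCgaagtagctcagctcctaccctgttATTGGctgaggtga
In Mcm6 an E2F match on each strand overlaps in the first run of capitals. Within these 120 bases Ccnb2 and Mcm5 held only CCAAT boxes, and Mki67 only the CHR element, so the marks do not divide the 6 genes by class. Within 250 bases Ccnb2 held 1 CHR match, Mki67 3 CCAAT boxes, and Mcm5 2 E2F matches and 1 CHR match.

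Over the 250 bases before the start site, 34 of the 43 members had a promoter entry, 15 replication and 19 mitotic genes. The CHR letters occurred in 11 of 19 mitotic promoters (57.89%), in 5 of 15 replication promoters (33.33%) and in 25.48% of 27025 promoters of all genes. A CCAAT box occurred in 16 of 19 mitotic promoters (84.21%), in 9 of 15 replication promoters (60.0%) and in 34.46% of all promoters. The E2F letters showed the opposite order, with 4 of 15 replication promoters (26.67%), 1 of 19 mitotic promoters (5.26%) and 1.91% of all promoters. Nusap1, a mitotic gene called higher below, had no match to any of these letters. A match is a match of letters only, and its absence from this window says nothing about a factor. Mcm4, Gins1, Gins2, Ccne2, Ccna2, Foxm1, Aurkb, Kif20a and Tpx2 had no entry.

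Counts per library ran from 7903288 in wild-type tumor 4 to 268564145 in ΔAgo2 tumor 4, and the others lay between 20683668 and 106188416. Values are given as CPM, the count scaled to 1e+06 counts of a TMM-adjusted library, always for tumors 1, 2, 3 and 4 of a genotype in that order, with means ± SD (n = 4). All 43 members passed the filter on low counts, and the smallest count of a member in a library was 31. The Ago2 transcript itself stood at 129.9, 195.0, 151.3 and 138.5 CPM in the wild-type tumors and at 118.3, 354.7, 215.0 and 270.1 CPM in the tumors labelled ΔAgo2, with a log2 fold change of 0.64 that did not pass the test (edgeR, adjusted p = 0.20), so the RNA does not show the knock-out. The study examined Ago2 protein in the cells by western blot. It reports that ΔAgo2 LLC tumors grew less than wild-type tumors in wild-type mice, and that returning Ago2 brought tumor growth back. In culture, according to the study, the loss of Ago2 left the growth of LLC cells unchanged. The study also states that other cells of a tumor express Ago2. Of 8 markers of epithelium or lung carcinoma, Krt8 and Krt18 had at least 2797 counts in every library, 6 passed the filter, and the lung lineage markers Nkx2-1 and Sftpc had 0 or 1 counts in each library. Skeletal muscle markers summed to between 47.3 and 454 CPM in 7 tumors but to 3306 CPM in wild-type tumor 3, and macrophage markers to between 1056 and 1840 CPM in 7 tumors but to 2749 CPM in ΔAgo2 tumor 1.

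The question was whether tumors of ΔAgo2 cells differ from wild-type tumors in transcripts of the division machinery. Of the 43 members, 3 were called higher in ΔAgo2 tumors, all of them mitotic: Nusap1, Kif11 and Ccnb2. None was called lower. These calls come from edgeR's quasi-likelihood test at an adjusted p of 0.05 over 16061 genes, of which 219 (1.36%) were called higher and 341 (2.12%) lower. Over the 43 members the median log2 fold change was 0.47, with 31 above 0, beside a median of 0.04 over all genes tested. The mitotic genes had a median of 0.71 with 21 of 24 above 0, and the replication genes a median of 0.09 with 10 of 19 above 0. Before adjustment, 19 members had p under 0.05 in the higher direction, 16 mitotic and 3 replication genes, and 1 in the lower direction, Ccne1, where 13.7% and 13.0% of all genes tested did. In whole tumors a change in the share of dividing cells cannot be told apart from a change in the RNA of each dividing cell.

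A plainer count asked whether all 4 ΔAgo2 tumors lay on one side of all 4 wild-type tumors. They lay above in 13 members, 10 mitotic and 3 replication genes, where 8.05% of all genes tested did, and below in 1 member, Cdc6, where 8.36% of all genes did. The number of calls depended on single tumors. It was 10 without ΔAgo2 tumor 1, 0 without ΔAgo2 tumor 2, 1 without ΔAgo2 tumor 3 and 0 without ΔAgo2 tumor 4. Of all genes tested, 6.01%, 0.258%, 0.309% and 0.123% were called higher in these fits. Without wild-type tumor 1, 2, 3 and 4 the number was 2, 0, 7 and 1, beside 1.56%, 0.158%, 2.21% and 0.467% of all genes. The median over the members stayed between 0.36 and 0.57 in these 8 fits. DESeq2's Wald test called 11 members higher and 0 lower, where it called 6.11% of 17899 genes higher and 6.26% lower, and limma voom called 17 higher and 2 lower, where it called 14.9% of all genes higher and 13.0% lower.

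**Figure D1:**
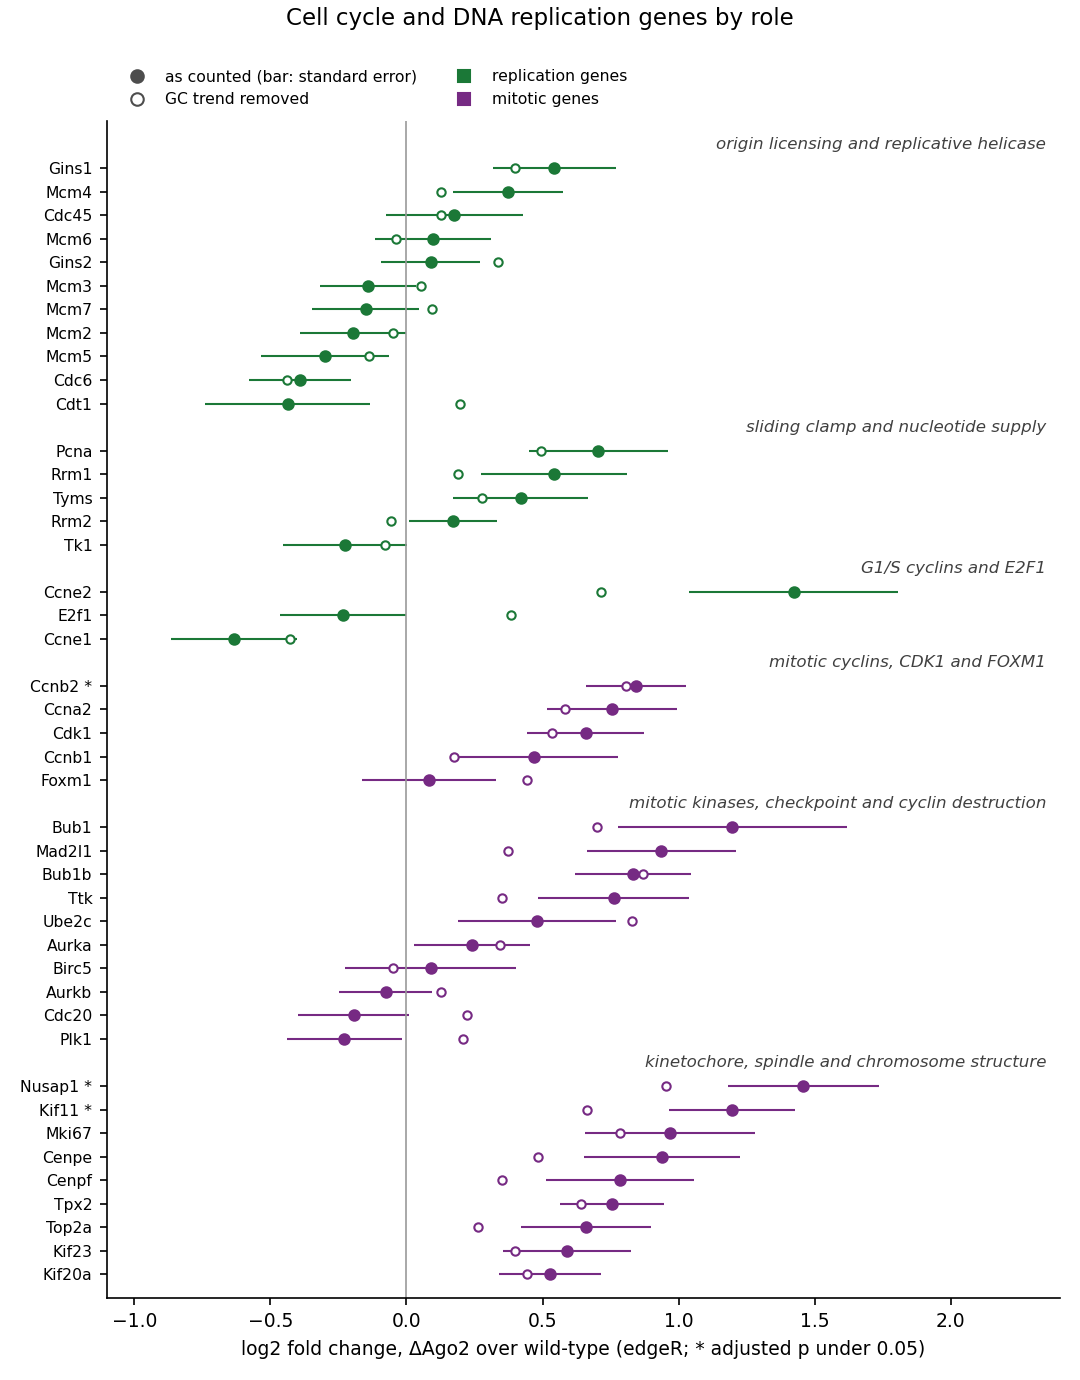
Log2 fold change of each of the 43 members, ΔAgo2 over wild-type, with filled points and standard error bars for the counts as deposited and open points after removal of each library's trend on GC content. All 9 genes of the kinetochore, spindle and chromosome group lie above 0 on both scales, while the helicase genes spread over both sides of 0; the 3 starred genes passed the test on the counts as deposited.

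Nusap1, Kif11 and their group build the spindle, move chromosomes and shape them for division. In this group all 9 log2 fold changes were above 0, with a median of 0.78, and 2 genes were called higher. Nusap1 (chr2:119618298-119651244 on GRCm38), which bundles spindle microtubules around chromosomes, stood at 32.6, 20.3, 35.8 and 16.6 CPM in wild-type and 54.9, 87.1, 68.3 and 80.7 CPM in ΔAgo2 tumors. Every ΔAgo2 tumor lay above the highest wild-type tumor, and the log2 fold change was 1.46, standard error 0.28 (edgeR, adjusted p = 0.023). Kif11 (chr19:37376403-37421859), the motor that pushes the spindle poles apart, stood at 40.9, 33.2, 46.5 and 31.8 CPM in the wild-type tumors. In ΔAgo2 tumors Kif11 stood at 70.7, 113, 67.2 and 99.1 CPM, again above all wild-type tumors, with a log2 fold change of 1.20, standard error 0.23 (edgeR, adjusted p = 0.024). Nusap1 lost its call without wild-type tumor 2 (edgeR, adjusted p = 0.088) or ΔAgo2 tumor 2, 3 or 4 (0.072, 0.058 and 0.075). Kif11 lost its call without wild-type tumor 2 or 4 (edgeR, adjusted p = 0.092 and 0.058) or ΔAgo2 tumor 2 or 4 (0.080 and 0.088). Nusap1 shares 172 exon bases with Oip5 on the other strand, and reads of this stretch are uncertain, since the strand setting of the counting was not given in the sources used here.

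Tpx2, which activates Aurora A on the spindle, had 92.7, 80.0, 103 and 64.8 CPM in wild-type and 134, 149.9, 144 and 146 CPM in ΔAgo2 tumors. Its groups did not overlap, yet its log2 fold change of 0.75 did not pass the test (edgeR, adjusted p = 0.056). Cenpe, the kinetochore motor that aligns chromosomes, had 33.8, 25, 37.4 and 19.9 CPM against 35.3, 78.7, 47.9 and 61.6 CPM. ΔAgo2 tumor 1 fell among the wild-type values of Cenpe, and the log2 fold change was 0.94 (edgeR, adjusted p = 0.088). Kif20a, a motor of the cleavage furrow, had the lowest fold change of the group, 0.53 on the log2 scale (edgeR, adjusted p = 0.12), from 96.3, 85.7, 92.6 and 68.9 CPM to 99.9, 132, 131 and 132 CPM. Here the lowest ΔAgo2 tumor, tumor 1, exceeded the highest wild-type tumor by a small margin. Kif20a shares 1271 exon bases with Cdc23 on the other strand.

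Among the other 4 genes of this group, log2 fold changes ran from 0.59 for Kif23 through 0.66 for Top2a and 0.78 for Cenpf to 0.97 for Mki67. Mki67 encodes Ki-67, the coat of mitotic chromosomes that pathologists stain to count dividing cells. It stood at 147, 104, 129.9 and 75.8 CPM in wild-type and 111, 299, 243 and 239.5 CPM in ΔAgo2 tumors. ΔAgo2 tumor 1 lay inside the wild-type range while the other 3 lay far above it, and the change did not pass the test (edgeR, adjusted p = 0.097). Without ΔAgo2 tumor 1 its log2 fold change was 1.18 (edgeR, adjusted p = 0.025). Top2a, the topoisomerase that untangles sister chromatids, was the most abundant mitotic gene by CPM in wild-type tumors, with 242 ± 68 CPM against 382 ± 54.3 CPM in ΔAgo2 tumors.

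**Figure D2:**
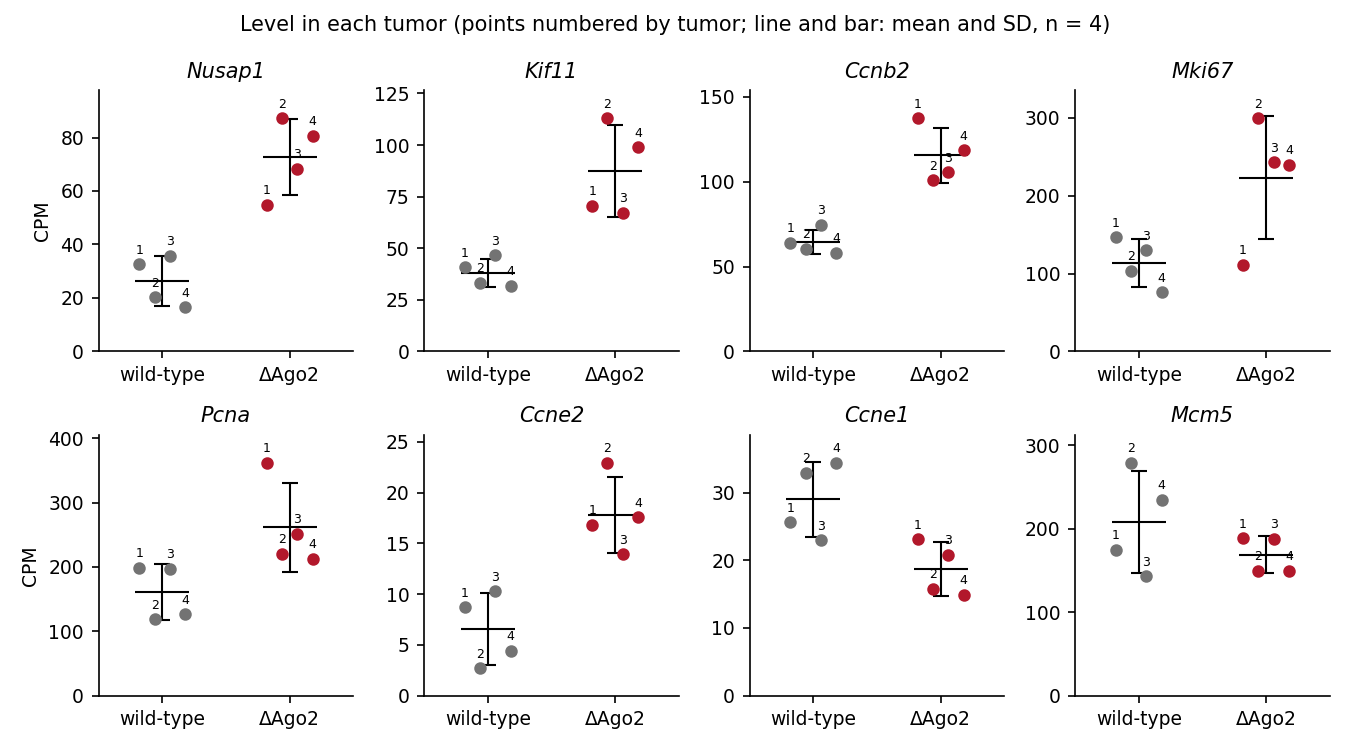
CPM of 8 members in each tumor, with points numbered by tumor within a genotype and black lines for the mean and SD (n = 4). The genotypes do not overlap for Nusap1, Kif11, Ccnb2, Pcna and Ccne2, overlap through ΔAgo2 tumor 1 for Mki67, and overlap for Ccne1 and Mcm5, whose ΔAgo2 means are the lower ones.

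The cyclins that start mitosis, their kinase CDK1 and the factor FOXM1 had log2 fold changes from 0.08 to 0.84, and 1 of the 5 genes was called higher. That gene was Ccnb2 (chr9:70407692-70421547), one of the B-type cyclins, at 64, 60.5, 74.7 and 58.2 CPM in the wild-type tumors and 137, 101, 105 and 118 CPM in ΔAgo2 tumors. The wild-type tumors lay close together, every ΔAgo2 tumor lay above them, and the log2 fold change was 0.84, standard error 0.18 (edgeR, adjusted p = 0.036). Ccnb2 kept its call without wild-type tumor 3 or ΔAgo2 tumor 1, and lost it without wild-type tumor 1, 2 or 4 (edgeR, adjusted p = 0.060, 0.11 and 0.090) or ΔAgo2 tumor 2, 3 or 4 (0.088, 0.083 and 0.13). Ccnb1, the other B-type cyclin of the list, had 69.3, 49.8, 85.4 and 26.8 CPM against 63, 87.6, 84.5 and 86 CPM. Its genotypes overlapped, with a log2 fold change of 0.47 (edgeR, adjusted p = 0.34), and pseudogene copies of it held under 0.3% of its counts each. Ccna2, the cyclin of S phase and G2, had 89.6, 59.2, 109.6 and 54.9 CPM in wild-type and 127, 141, 129.8 and 131 CPM in ΔAgo2 tumors. For Ccna2 the ΔAgo2 tumors were nearly equal and all above the wild-type range (log2 fold change 0.76, edgeR adjusted p = 0.093). It shares 510 exon bases with Exosc9 on the other strand.

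Cdk1 itself stood at 89.9, 95.5, 101 and 114 CPM in wild-type and 220.2, 126, 133 and 151.5 CPM in ΔAgo2 tumors. ΔAgo2 tumor 1 was the highest, unlike in Mki67 and Cenpe, and the log2 fold change was 0.66 (edgeR, adjusted p = 0.10). Foxm1, whose product drives the G2 genes, had 75.2, 106, 73.2 and 71.7 CPM against 51.2, 98.5, 101 and 94.5 CPM. ΔAgo2 tumor 1 was the lowest of all 8 tumors and wild-type tumor 2 the highest, so that the genotypes overlapped throughout (log2 fold change 0.08, edgeR adjusted p = 0.85).

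Of the 10 mitotic kinases, checkpoint genes and genes of cyclin destruction, 7 had log2 fold changes above 0, with a median of 0.36, and none was called by edgeR in either direction. At an unadjusted p under 0.05 there were 4 higher and 0 lower (13.7% and 13.0% of all genes), voom called 4 higher (14.9% of all genes), and DESeq2 called 3 higher, Bub1, Bub1b and Mad2l1 (6.11% of all genes). The genes of the spindle checkpoint, which holds anaphase until every kinetochore is attached, had the largest values. Bub1b encodes BubR1, a part of the inhibitor of the anaphase-promoting complex, and stood at 75, 74.3, 77.4 and 57.8 CPM in wild-type and 86.1, 143, 139 and 138 CPM in ΔAgo2 tumors. Its genotypes did not overlap, with a log2 fold change of 0.83 (edgeR, adjusted p = 0.059). Mad2l1, another part of that inhibitor, had 52.3, 26, 67 and 36 CPM against 95.2, 87.7, 79.9 and 85 CPM. All ΔAgo2 tumors of Mad2l1 were above all wild-type tumors (log2 fold change 0.94, edgeR adjusted p = 0.080). Bub1, the kinase that recruits both, had 37.8, 17.9, 47 and 10.5 CPM in the wild-type tumors and 40.2, 83, 64.1 and 74.2 CPM in ΔAgo2 tumors. Wild-type tumors 2 and 4 were low, wild-type tumor 3 exceeded ΔAgo2 tumor 1, and the log2 fold change of 1.20 had a standard error of 0.42 (edgeR, adjusted p = 0.11).

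Ttk encodes the MPS1 kinase that starts checkpoint signaling. It was the lowest mitotic gene by CPM, with 11.8, 6.63, 12.2 and 6.74 CPM in wild-type and 11.7, 18.6, 16.9 and 16.7 CPM in ΔAgo2 tumors (log2 fold change 0.76, edgeR adjusted p = 0.12). Only ΔAgo2 tumor 1 fell within its wild-type range. Plk1, a kinase of mitotic entry and spindle assembly, had the lowest fold change of the group, from 90.7, 135, 92.5 and 136 CPM to 116, 85.6, 99 and 87 CPM. The overlap was wide, with a log2 fold change of -0.23 (edgeR, adjusted p = 0.50). Cdc20 and Ube2c, which direct the anaphase-promoting complex to the cyclins, had log2 fold changes of -0.19 and 0.48, and the Aurora kinases Aurka and Aurkb had 0.24 and -0.08. Birc5, the survivin subunit of the Aurora B complex, had 0.09. Without ΔAgo2 tumor 1 the value of Birc5 was -0.28 (edgeR, adjusted p = 0.40) and that of Ube2c 0.13 (adjusted p = 0.66). The Ube2c value is uncertain because 592 of its exon bases are shared, on the other strand, with Tnnc2, a muscle gene.

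At the G1/S border the cyclin E genes went in opposite directions, and neither passed the test. Ccne2 stood at 8.70, 2.72, 10.3 and 4.44 CPM in wild-type and 16.8, 22.9, 13.9 and 17.6 CPM in ΔAgo2 tumors. All ΔAgo2 tumors lay above all wild-type tumors, with a log2 fold change of 1.42, standard error 0.38 (edgeR, adjusted p = 0.067). DESeq2 called it higher (adjusted p = 0.0073). Ccne1 stood at 25.6, 32.9, 23 and 34.4 CPM in wild-type and 23.1, 15.8, 20.8 and 14.9 CPM in ΔAgo2 tumors. Only ΔAgo2 tumor 1 reached the wild-type range, just above wild-type tumor 3, and the log2 fold change was -0.63 (edgeR, adjusted p = 0.12). The transcripts are unlike in composition, with a GC content of 36.3% for Ccne2 and 52.7% for Ccne1, and Ccne2 shares 609 exon bases with Ints8 on the other strand. E2f1, the activator of this wave, had 54.5, 77.3, 54.5 and 101 CPM against 68.4, 61.2, 61.6 and 52.4 CPM, with overlapping genotypes (log2 fold change -0.23, edgeR adjusted p = 0.53).

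The licensing and helicase genes lay on both sides of 0. Their mean log2 CPM, ΔAgo2 minus wild-type, differed by -0.017, and by 0.061 with the GC trend removed, and the genotypes overlapped on both scales. Of these 11 genes, 5 had log2 fold changes above 0, the median was -0.14, and none was called by edgeR or DESeq2. Limma voom called 1 lower (13.0% of all genes), and 1 had an unadjusted p under 0.05 in the higher direction by edgeR (13.7% of all genes). The largest value was that of Gins1, a subunit of the active helicase, with 18, 12.5, 17 and 14.5 CPM in wild-type and 29.5, 20.6, 22.4 and 18 CPM in ΔAgo2 tumors. The ranges met at wild-type tumor 1 and ΔAgo2 tumor 4, and the log2 fold change was 0.54 (edgeR, adjusted p = 0.16). Cdc6, which loads MCM rings onto origins, went the other way, from 38.4, 41, 32.2 and 34.3 CPM to 27.3, 30.9, 29.8 and 23.2 CPM. It was the single member with every ΔAgo2 tumor below every wild-type tumor, and its log2 fold change of -0.39 did not pass the test (edgeR, adjusted p = 0.21). Cdt1, its partner in loading, had 106, 177, 97.1 and 261 CPM against 135, 112, 125 and 102 CPM. The wild-type tumors 2 and 4 were high and the rest lay together (log2 fold change -0.44, edgeR adjusted p = 0.36).

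The rings themselves, Mcm2 to Mcm7, had log2 fold changes between -0.30 for Mcm5 and 0.37 for Mcm4. Mcm4 had 104, 89.8, 112 and 74 CPM in wild-type and 101, 147, 128 and 115 CPM in ΔAgo2 tumors, which overlapped (edgeR, adjusted p = 0.25). Mcm5 had 208 ± 60.9 CPM in wild-type and 169 ± 22.4 CPM in ΔAgo2 tumors, with the highest values in wild-type tumors 2 and 4. The difference was smaller than the spread between wild-type tumors (edgeR, adjusted p = 0.42). Between them, Mcm7 had -0.15, Mcm2 -0.20, Mcm3 -0.14 and Mcm6 0.10 on the log2 scale, with standard errors between 0.18 and 0.21. Gins2 and Cdc45, the remaining helicase subunits of the list, had 0.09 and 0.18, and Cdc45 had -0.04 without ΔAgo2 tumor 1. Mcm7, Gins2 and Cdc45 share exon bases with neighbours on the other strand, 2758 of them in Gins2.

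The sliding clamp and the genes of nucleotide supply had a median log2 fold change of 0.42 with 4 of 5 above 0. None was called in either direction by edgeR, DESeq2 or limma voom, with 1 unadjusted p under 0.05 in the higher direction by edgeR (13.7% of all genes). Pcna, the clamp that holds the polymerase on DNA, stood at 199, 119, 197 and 127 CPM in wild-type and 362, 220.3, 251 and 213 CPM in ΔAgo2 tumors. Its genotypes did not overlap, ΔAgo2 tumor 1 was the highest, and the log2 fold change was 0.70, standard error 0.26 (edgeR, adjusted p = 0.12). A near-identical copy, Pcna-ps2, held 6.0% as many counts as Pcna. Rrm1, the large subunit of ribonucleotide reductase, had 157.1, 86.4, 143 and 66.2 CPM against 169, 169, 162 and 161 CPM. The ΔAgo2 tumors were nearly equal and just above the highest wild-type tumor, while wild-type tumors 2 and 4 were low (log2 fold change 0.54, edgeR adjusted p = 0.22).

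Rrm2, the small subunit of that enzyme, had 91.7, 87, 96.6 and 101 CPM in wild-type and 102, 108, 113 and 99.3 CPM in ΔAgo2 tumors (log2 fold change 0.17, edgeR adjusted p = 0.51). Its wild-type values were the steadiest of the group, and the genotypes overlapped. Tyms, which makes thymidylate, had 34.2, 20.3, 36.7 and 19.8 CPM against 44.2, 34.2, 36.4 and 34.3 CPM (log2 fold change 0.42, edgeR adjusted p = 0.29). Tk1, which salvages thymidine, had 95.7, 116, 83.5 and 133 CPM against 124, 73, 82.6 and 86.1 CPM (log2 fold change -0.22, edgeR adjusted p = 0.54). Both overlapped between genotypes.

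Levels can be compared between genes only per length, for which the deposited TPM values were used. In wild-type tumors the members ran from 5.09 ± 3.18 TPM for Ccne2 and 5.15 ± 2.19 TPM for Ttk to 174 ± 30.8 TPM for Cdc20 and 180.1 ± 66.7 TPM for Pcna. In ΔAgo2 tumors Ttk was the lowest at 10.4 ± 3.67 TPM, and Pcna remained the highest at 325 ± 15.6 TPM, followed by Ccnb2 at 229.5 ± 28.9 TPM. The neighbours Cdc20 and Pcna did not differ in wild-type tumors beyond the spread between tumors.

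Averaged over all genes of a class, the 24 mitotic genes separated the genotypes and the 19 replication genes did not. The mean log2 CPM of the 24 mitotic genes was 6.07, 5.80, 6.17 and 5.72 in wild-type tumors and 6.43, 6.67, 6.56 and 6.62 in ΔAgo2 tumors. Each ΔAgo2 tumor was above each wild-type tumor, and the means were 5.94 ± 0.22 and 6.57 ± 0.10 (SD, n = 4). For the 19 replication genes the values were 6.23, 6.13, 6.14 and 6.20 in wild-type and 6.46, 6.27, 6.32 and 6.15 in ΔAgo2 tumors. They overlapped through ΔAgo2 tumor 4, with a difference of 0.12 against 0.63 for the mitotic genes. Among the replication genes, the 5 genes of the sliding clamp and nucleotide supply did separate, by a small margin, with 6.63 in the highest wild-type and 6.64 in the lowest ΔAgo2 tumor, and overlapped once the GC trend was removed. The difference between both averages within a tumor, mitotic minus replication, was -0.16, -0.33, 0.03 and -0.49 in wild-type and -0.03, 0.39, 0.23 and 0.47 in ΔAgo2 tumors. It too overlapped, since ΔAgo2 tumor 1 fell below wild-type tumor 3. These averages rest on lists chosen with earlier results of the data known and were given no test.

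**Figure D3:**
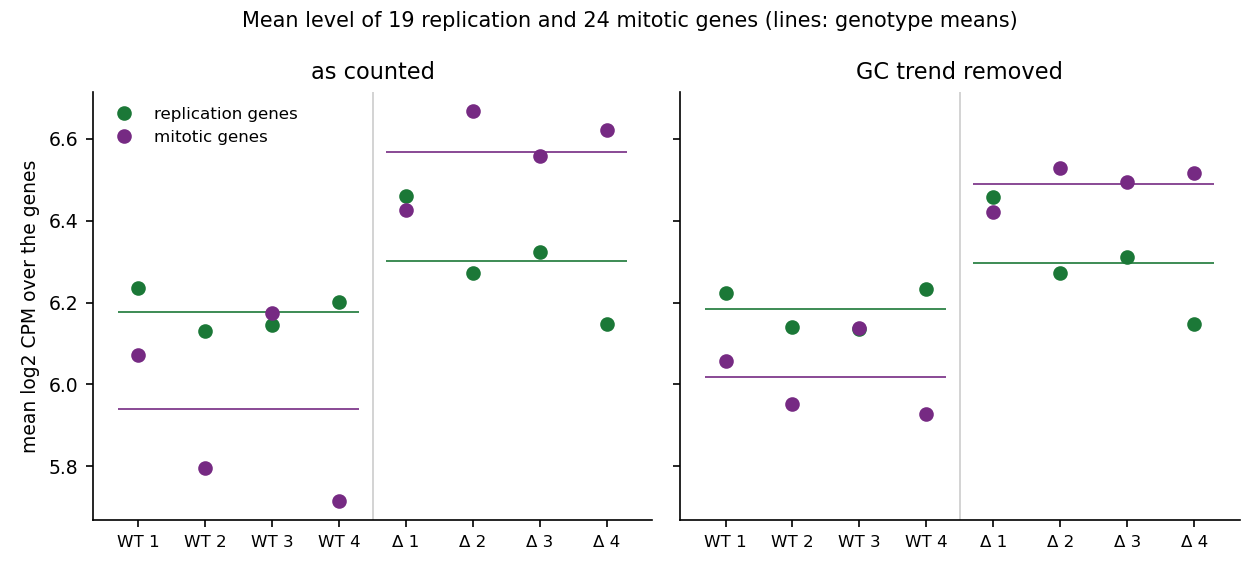
Mean log2 CPM of the 19 replication genes (green) and the 24 mitotic genes (purple) in each tumor, as counted and after removal of the GC trend of each library, with lines at the genotype means. On both scales the mitotic means of the 4 ΔAgo2 tumors lie above those of the 4 wild-type tumors, and the replication means overlap.

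The fold changes followed the GC content of the transcripts in all genes, and so also in these. Over 16059 genes with a GC content, Spearman's rho between log2 fold change and GC content was -0.56, and over the 43 members it was -0.79; the genes share the same 8 libraries, so both are descriptions. The mitotic genes had a median GC content of 46.97% and the replication genes one of 49.28%, beside 49.84% for all genes tested. Genes were therefore also compared within ranges of GC content. Under 45% GC, the 9 mitotic genes were all above 0 with a median log2 fold change of 0.94, where 83.6% of all genes in that range were above 0 with a median of 0.54. The 2 replication genes of that range, Ccne2 and Rrm1, were at 1.42 and 0.54, with a median of 0.98 that was not below the mitotic one. From 45 to 50% GC, the 8 mitotic genes were all above 0 with a median of 0.71, 7 of 8 replication genes were above 0 with a median of 0.27, and 67.5% of all genes were above 0 with a median of 0.20. At 50% GC or more, 4 of 7 mitotic genes were above 0 with a median of 0.08, 1 of 9 replication genes with a median of -0.22, and 28.9% of all genes with a median of -0.29.

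With each library's GC trend removed, 5 members were called higher, all mitotic, and 0 lower, where 1.81% of all genes were called higher and 1.87% lower. The 5 were Nusap1 at a log2 fold change of 0.95 (edgeR, adjusted p = 0.0042), Ccnb2 at 0.80 (adjusted p = 0.018), Tpx2 at 0.64 (adjusted p = 0.031), Kif11 at 0.66 (adjusted p = 0.039) and Bub1b at 0.87 (adjusted p = 0.042). The 3 genes called on the counts as deposited were among them. Ccnb2 and Bub1b, which have a GC content near the middle, hardly moved, while Nusap1 and Kif11, which are poor in GC, moved closer to 0. The median over all members was then 0.34, with 35 above 0, and the medians of the mitotic and replication genes were 0.44 and 0.13. Ccne2 went to 0.72 (adjusted p = 0.11) and Ccne1 to -0.43 (adjusted p = 0.17), still in opposite directions. The signs of Cdt1, E2f1 and Plk1, all rich in GC, turned from negative to positive (0.20, 0.39 and 0.21), as did those of Mcm3 (0.05), Mcm7 (0.095), Aurkb (0.13) and Cdc20 (0.22). Those of Rrm2 (-0.057), Mcm6 (-0.037) and Birc5 (-0.051) turned from positive to negative, and none of these 10 passed the test on either scale. The mitotic average still separated the genotypes, by 0.47. After the correction Spearman's rho between log2 fold change and GC content was still -0.32 over the 43 members, beside 0.012 over all genes tested. What part GC content has in the result was not tested beyond these values.

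**Figure D4:**
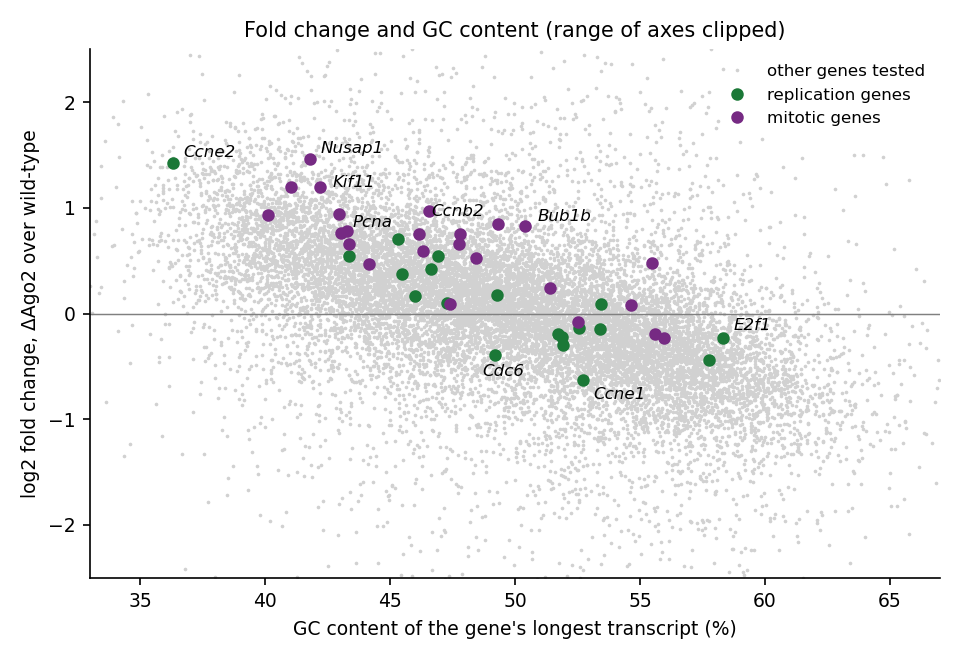
Log2 fold change, ΔAgo2 over wild-type, against the GC content of the longest transcript, with replication genes in green, mitotic genes in purple and the other genes tested in grey (229 of 16059 genes lie outside the axes). Members follow the downward trend of all genes, and Ccnb2 and Bub1b lie above it while Ccne1 and Cdc6 lie below it.

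ΔAgo2 tumor 1 departed from the other ΔAgo2 tumors along gene length. Its log2 CPM minus the mean of ΔAgo2 tumors 2 to 4 was -1.22 for Mki67, -0.93 for Foxm1 and -0.91 for Cenpf, and 1.11 for Birc5 and 1.07 for Ube2c. Among the 21 members longer than the median exon length of 4217 bases it was the lowest ΔAgo2 tumor in 12, and among the 22 others it was the highest in 15. Spearman's rho between its deviation from the genotype mean and exon length was -0.58 over the 43 members and -0.51 over all genes. For wild-type tumor 4 the same values were -0.53 and -0.25. The deviation of ΔAgo2 tumor 1 also followed GC content, with a rho of 0.45 over the members and 0.32 over all genes. This was not particular to it. In wild-type tumors 1 to 4 the rho was -0.85, 0.80, -0.88 and 0.76 over the members. Over all genes it was -0.54, 0.43, -0.57 and 0.50 there. In ΔAgo2 tumors 2 to 4 it was -0.57, 0.26 and -0.49 over the members and -0.42, 0.20 and -0.27 over all genes. With ΔAgo2 tumor 1 left out, 10 members were called higher, all mitotic, and 0 lower, where 6.01% of 16301 genes were called higher and 4.99% lower. These were Ccnb2, Bub1b, Cenpe, Cenpf, Kif11, Kif20a, Kif23, Tpx2, Nusap1 and Mki67, with log2 fold changes from 0.61 to 1.56 and adjusted p from 0.016 to 0.049 by edgeR. Without it the replication genes had a median log2 fold change of -0.04 and 0 calls in either direction by edgeR, and the mitotic genes a median of 0.74. With the GC trend also removed, a combination chosen after seeing the data, 12 mitotic genes were called higher, Ccna2 and Foxm1 joining those 10, where 7.22% of all genes were called higher and 5.19% lower. Without this tumor the sign of 2 members, Cdc45 and Birc5, turned from positive to negative.

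**Figure D5:**
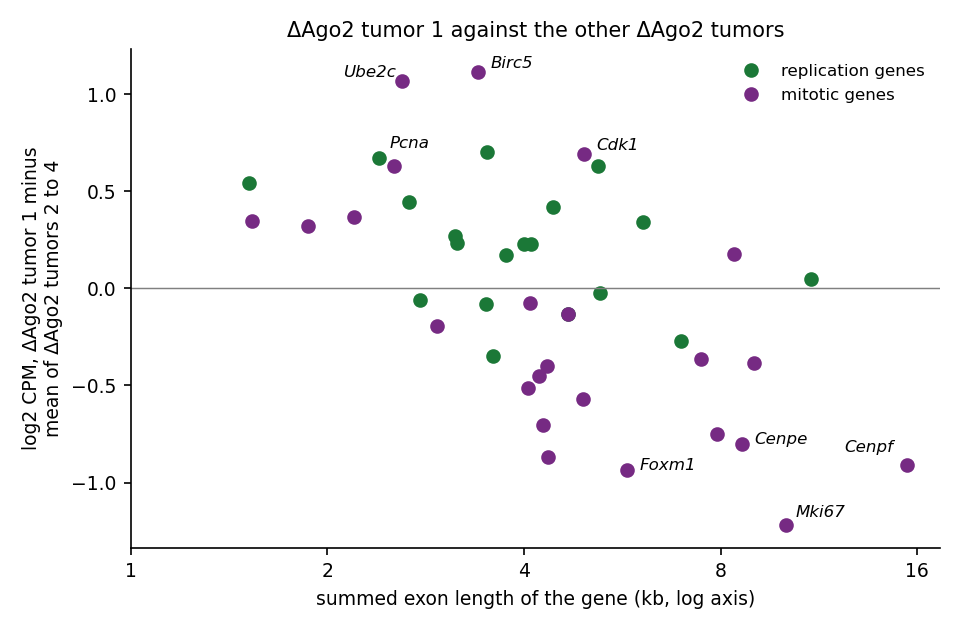
Log2 CPM of ΔAgo2 tumor 1 minus the mean of ΔAgo2 tumors 2 to 4 against summed exon length (log axis) for the 43 members, replication genes in green and mitotic genes in purple. Short transcripts such as Ube2c and Birc5 lie above 0 and long ones such as Mki67, Cenpe and Cenpf below it, though the long Rrm1 and Mad2l1 lie above 0.

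Beyond the 43 members, 132 further genes of the same pathway were read from the same fit, of which 131 were tested and 4 were called higher: Cdkn1b, Ccnd1, Rpa3 and Kif15. None was called lower by edgeR, with unadjusted p under 0.05 in 53 genes upward and 4 downward (13.7% and 13.0% of all genes). DESeq2 called 24 higher and 1 lower (6.11% and 6.26% of all genes), and limma voom 50 and 3 (14.9% and 13.0%). Their median log2 fold change was 0.40. Cdkn1b encodes p27, an inhibitor of cyclin E with CDK2, and stood at 46.1, 50.7, 44.6 and 49.5 CPM in wild-type and 87.4, 108, 76.9 and 108 CPM in ΔAgo2 tumors. The wild-type tumors lay within a few CPM of each other, the ΔAgo2 tumors lay well above, and the log2 fold change was 1.00, standard error 0.18 (edgeR, adjusted p = 0.019). It was 0.50 with the GC trend removed and lost its call (edgeR, adjusted p = 0.20). The call was also lost without wild-type tumor 2 (edgeR, adjusted p = 0.059) or ΔAgo2 tumor 2 or 4 (0.077 and 0.089). Cdkn1a, which encodes the p21 inhibitor and was chosen for mention after its values were seen, had 496, 546, 459.6 and 695 CPM against 401, 274, 319 and 276 CPM. All ΔAgo2 tumors lay below all wild-type tumors in Cdkn1a, and the log2 fold change of -0.79 did not pass the test (edgeR, adjusted p = 0.068). DESeq2 called Cdkn1a lower (adjusted p = 0.013), as did edgeR without ΔAgo2 tumor 1 (-0.93, adjusted p = 0.029). With the GC trend removed and all tumors kept it was at -0.47 and was not called (edgeR, adjusted p = 0.11).

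Ccnd1, the cyclin of G1 that answers growth signals, stood at 429.7, 391, 417 and 371 CPM in wild-type and 685, 729.9, 631 and 636 CPM in ΔAgo2 tumors. The genotypes were far apart relative to their spread, with a log2 fold change of 0.74 (edgeR, adjusted p = 0.049) and 0.81 after the GC correction (adjusted p = 0.018). It was the 1 of 9 G1 cyclins and kinases that was called. Rpa3, a subunit of the protein that coats single-stranded DNA, had 16.2, 7.63, 17.3 and 17.8 CPM against 64.9, 35.4, 26.5 and 37.1 CPM, and 1 of 22 genes of polymerases, clamp loading and lagging strand was called. Its log2 fold change of 1.48 (edgeR, adjusted p = 0.044) fell to 0.66 after the GC correction (adjusted p = 0.40). Kif15, a spindle motor that works beside Kif11, had 12.9, 11.5, 15.9 and 11.2 CPM against 21.9, 37.5, 19.6 and 31.3 CPM. With 1.10 on the log2 scale (edgeR, adjusted p = 0.046) it was the 1 of 22 other kinetochore and spindle genes that was called, and 18 of the 22 were above 0. With the GC trend removed Kif15 was at 0.60 (edgeR, adjusted p = 0.11). Ccnd1 kept its call only without ΔAgo2 tumor 1, and lost it without any other tumor (edgeR, adjusted p from 0.059 to 0.16). Rpa3 and Kif15 each lost the call without wild-type tumor 1, 2 or 4 or ΔAgo2 tumor 2, 3 or 4, with adjusted p by edgeR from 0.058 to 0.12 for Rpa3 and from 0.063 to 0.15 for Kif15.

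In the remaining 5 lists no gene was called by edgeR, though unadjusted p under 0.05 in the higher direction ran from 4 to 10 genes a list (13.7% of all genes). DESeq2 called 0 to 5 genes a list, where it called 6.11% of all genes higher and 6.26% lower. With the GC trend removed 3 of their genes were called higher and 0 lower, where 1.81% and 1.87% of all genes were. These were E2f2 at 1.25 (edgeR, adjusted p = 0.0019), Cdc25b at 0.68 (adjusted p = 0.026) and Gmnn at 0.99 (adjusted p = 0.049). E2f2, an activator E2F, and Cdc25b, a phosphatase that activates CDK1, were chosen for mention after their values were seen. For each list the gene with the smallest p on the counts as deposited is given. All 14 genes of origin recognition and helicase loading had log2 fold changes above 0 (12 with the GC trend removed), and Gmnn, the inhibitor of Cdt1, had 26.3, 18, 22.2 and 20.1 CPM against 67.2, 34.1, 39.3 and 33.4 CPM (1.00, edgeR adjusted p = 0.063). Of 14 cohesin and condensin genes 13 were above 0, and Ncapg2 had 15.9, 13.3, 19.9 and 7.88 CPM against 21.5, 76.8, 28.8 and 52.8 CPM (1.65, edgeR adjusted p = 0.054). The genotypes of Gmnn and Ncapg2 did not overlap. Of 18 genes of the RB family, other E2Fs and the MuvB core 13 were above 0, and Rbl1, which encodes p107, had 18.9, 16.7, 16.4 and 12.2 CPM against 20.5, 51.5, 29.4 and 41.7 CPM (1.15, edgeR adjusted p = 0.057). Of 10 checkpoint kinases and CDC25 phosphatases 9 were above 0, and Wee1, the kinase that holds CDK1 inactive, had 24.3, 22.1, 29.3 and 18.9 CPM against 24.4, 55.1, 52.1 and 50.2 CPM (0.94, edgeR adjusted p = 0.080). The anaphase-promoting complex was nearly evenly split, with 9 of 16 genes above 0. Its gene with the smallest p was Anapc2, a scaffold subunit, at 266, 375, 236 and 367 CPM against 197, 189.6, 227 and 195 CPM, with every ΔAgo2 tumor below every wild-type tumor (-0.62, edgeR adjusted p = 0.10).

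Markers of other cell types were summed because host cells also divide. The 8 fibroblast markers summed to between 4866 and 7199 CPM in wild-type and between 2217 and 4595 CPM in ΔAgo2 tumors, with 1 of 8 called lower (2.12% of all genes). The 8 leukocyte markers overlapped between genotypes, at 904 to 1281 CPM and 887 to 1429 CPM, and the 11 T and NK cell markers at 13.6 to 30.2 CPM and 24.6 to 59.7 CPM, with 0 called by edgeR in either list and 1 and 3 at an unadjusted p under 0.05, all higher. In all 8 muscle markers the log2 fold change was below 0. Of these, 7 had an unadjusted p under 0.05 by edgeR (13.0% of all genes, lower) and 0 passed the edgeR test (2.12%). Keratinocyte markers lay between 166 and 843 CPM in 7 tumors and at 10.8 CPM in the third wild-type tumor, with 1 of 7 called higher (1.36% of all genes). Endothelial markers ranged from 96.7 to 148.6 CPM in wild-type and from 101 to 131 CPM in ΔAgo2 tumors. ΔAgo2 tumor 1 held the lowest fibroblast sum, 2217 CPM, and the highest leukocyte and T and NK cell sums, 1429 and 59.7 CPM. In ΔAgo2 tumors 2 to 4 these sums were 4107 to 4595, 887 to 1107 and 24.6 to 28.2 CPM. Adipocyte markers summed to 339 CPM in ΔAgo2 tumor 1 and to 9.64 to 33.4 CPM in ΔAgo2 tumors 2 to 4. In wild-type tumors they summed to 16.4 to 177 CPM. The part of these cell types in the values of the dividing-cell genes was not tested.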

How the data were processed

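RNA-seq of 8 tumors was analysed, 4 wild-type and 4 labelled Ago2 knock-out, grouped by genotype label. The authors deposited gene counts, whole numbers with no normalization, and TPM values, which divide counts by gene length and scale each library to 1e+06. The study's methods, written for cultured cells, name alignment to ribosomal RNA and then to mm10 and counting with featureCounts, and the submitters' processing notes name STAR. The strand setting, the annotation release and the handling of reads with several matches were not given in the sources used here. Identifiers were matched to GENCODE M21 (99.29% of 55487 with version), which gave positions, exon length and GC content.

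Counts were tested with edgeR 4.0.16 in R 4.3.3 (filterByExpr, TMM, quasi-likelihood, no covariate, Benjamini-Hochberg over all genes tested, 0.05), which also gives the adjusted p-values printed with the alternatives unless another tool is named. DESeq2 1.42.0, limma 3.58.1, other scalings and filters, GC and length trends (loess in each library, fitted to genes averaging 50 counts or more, as offsets), thinning and leaving out each library were alternatives. Log2 CPM used a prior count of 2. Libraries of 1 genotype differed by more than sampling noise, so none was merged. Each tumor is a separate biological replicate per the labels, and p-values measure the spread between these tumors. Same-numbered tumors did not deviate together (correlations from -0.29 to 0.10). The members and lists were chosen with earlier results of these data known. Named genes are, per role group, the 4 members with the smallest p and the lowest log2 fold change, and, per pathway list, the called genes or the smallest p. Genes given beyond this rule include Mki67, Top2a, Mcm5, Cdkn1a, E2f2 and Cdc25b. Procedures were tested on simulated counts.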

Additional observations from a re-analysis of the deposited data

Results flagged for a closer look

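Of 104 groups of 4 values examined, 11 held a tumor that stood apart from the other 3 by Dixon's criterion, where chance alone gives about 5.2 (1 in 20 groups). ΔAgo2 tumor 1 held 8 of them. The low ones were Ccnb1 at 63.0 CPM (the others 84.5 to 87.6), Foxm1 at 51.2 CPM (94.5 to 101), Bub1b at 86.1 CPM (138 to 143) and Kif20a at 99.9 CPM (131 to 132). The high ones were Birc5 at 139 CPM (59.9 to 70.6), Ube2c at 242 CPM (109 to 123) and Gins2 at 31.0 CPM (26.2 to 26.9). The mean log2 CPM of the mitotic kinases, checkpoint and cyclin destruction genes was also highest there, at 6.35 against 6.20 to 6.22. In wild-type tumor 4, Aurka was high at 79.1 CPM (60.5 to 62.0) and Bub1b low at 57.8 CPM (74.3 to 77.4). In wild-type tumor 2, Foxm1 was high at 105.6 CPM (71.7 to 75.2). The calls without ΔAgo2 tumor 1 are given with the results, and the causes were not tested.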

How the results depend on the processing

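The count of members called higher was 3 and moved with the method: 11 with DESeq2, 17 with limma voom, 5 with no count filter, 7 with the length correction, 5 with the GC correction and 0 with limma on log2(TPM + 1), on log2(TPM + 0.1) and on log2(TPM + 1) without a filter. Leaving out 1 library gave from 0 to 10, where 0.123% to 6.01% of all genes were called higher. Members called lower numbered 0 in every one of these fits except limma voom, which gave 2. All genes called numbered 560, and 2214 with DESeq2, 4476 with voom, 983 with no filter, 1170 with the length correction, 153, 107 and 77 in the 3 TPM fits, and 88 to 1793 without 1 library. Pathway genes called numbered 4, and 25, 53, 12 and 17 in the first 4 of these, 2, 1 and 0 in the TPM fits, and 0 to 25 without 1 library. The median log2 fold change of the members was 0.47, and 0.26 with voom, 0.34 with the GC correction, 0.64, 0.69 and 0.64 in the TPM fits, and 0.36 to 0.57 without 1 library. The median of all genes was 0.04, and 0.16 without a count filter, 0.21 with log2(TPM + 1) and 0.28 with log2(TPM + 0.1), so those medians sit on a shifted centre. With the GC correction and without ΔAgo2 tumor 1, chosen after seeing the data, 2023 genes, 12 members and 31 pathway genes were called and the median was 0.21.

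With the replicate number as a block, 70 genes, 0 members and 0 pathway genes were called. The block with the length correction gave 130, 0 and 0, and the block with the GC correction gave 289, 1 and 2, with a median over the members of 0.33. The numbers do not pair the tumors, and ΔAgo2 tumor 1 correlated best with wild-type tumor 4.

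Among the members named by rule, the sign turned for Cdt1, Rrm2, E2f1 and Plk1 with the GC correction (0.20, -0.057, 0.39 and 0.21), with the block and the GC correction (0.21, -0.0471, 0.38 and 0.21) and with the GC correction without ΔAgo2 tumor 1 (0.20, -0.086, 0.40 and 0.18). For E2f1 and Plk1 it also turned in the TPM fits, to 0.022 and 0.0048 with log2(TPM + 1), with or without a filter, and to 0.023 and 0.0049 with log2(TPM + 0.1). None of these 4 genes passed the test in the counts as deposited. The causes were not tested. Wild-type tumor 4 has the fewest counts, 31 of them for Ccne2, and thinning all libraries to its depth left 3 members called.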
